A study of Mus musculus with 18 samples.

Results

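Synaptic vesicle and release genes encode the proteins that fill the nerve terminal with transmitter vesicles, dock those vesicles at the active zone and fuse them with the membrane. Here they were followed in hippocampus and cortex of mice given urban particulate matter (UPM) through the nose. The members were chosen by symbol, from the families Syt, Syn, Snap25, Stx, Stxbp, Vamp, Sv2, Syp, Rab3, Cplx, Unc13, Rims and Syngr. A symbol counted as a member when it had at least 10 counts in at least 9 of the 18 libraries. Of 23238 symbols in the count files 91 matched the pattern and 78 were members. The pattern is one of letters, so it also takes Rab30 to Rab39b, the regulators Rab3gap1, Rab3gap2, Rab3il1 and Rab3ip, the Golgi and endosomal syntaxins and VAMPs, and the pseudogene Stxbp3-ps.

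The mice were male C57BL/6, 7 weeks old at the start, and received vehicle (PBS, the control) or UPM in PBS. Short-term UPM was given daily for 3, 5 or 7 days, and long-term UPM 2 times per week for 3, 8, 12, 16 or 20 weeks. Each of the 2 tissues had 1 library for the control and 1 for each of the 8 exposure times, and each library was made from RNA pooled over the mice of a group. The labels do not say how long the control mice received vehicle, so age and exposure time move together in the long-term libraries. Because animals were pooled, every p-value measures the spread between libraries of different exposure times and not between animals.

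At a terminal, synaptobrevin (Vamp1 and Vamp2) on the vesicle zips together with the syntaxin Stx1a and Snap25 on the plasma membrane into the SNARE complex that drives fusion. The Munc13 proteins (Unc13a, Unc13b, Unc13c) prepare this complex, complexins clamp and assist it, and synaptotagmins such as Syt1 and Syt2 trigger it when calcium enters. Rims proteins and Rab3 tether vesicles at the active zone, synapsins hold the reserve vesicles together, and Sv2, synaptophysin (Syp) and synaptogyrins (Syngr) sit in the vesicle membrane.

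Promoters of 61 of the 78 members were found in RefSeq's table for build GRCm38.p6, as windows of 250 bases before to 50 bases after the start. Stretches of 250 bases upstream are shown for 3 members whose levels differed most clearly below, Stx1a, Unc13a and Unc13b, and for Syn1, the one member with 2 of the rarer motifs. All are written 5′ to 3′ in the direction of the gene, with motif matches in capitals.
Stx1a, chr5:135023232-135023481, plus strand, GGGCGG in capitals: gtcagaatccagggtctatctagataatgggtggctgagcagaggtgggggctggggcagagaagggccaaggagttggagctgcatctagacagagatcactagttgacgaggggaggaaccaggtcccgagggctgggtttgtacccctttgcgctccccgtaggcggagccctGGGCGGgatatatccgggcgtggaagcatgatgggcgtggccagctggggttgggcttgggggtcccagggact
Unc13a, chr8:71671758-71672007, minus strand, GGGCGG read on the other strand in capitals: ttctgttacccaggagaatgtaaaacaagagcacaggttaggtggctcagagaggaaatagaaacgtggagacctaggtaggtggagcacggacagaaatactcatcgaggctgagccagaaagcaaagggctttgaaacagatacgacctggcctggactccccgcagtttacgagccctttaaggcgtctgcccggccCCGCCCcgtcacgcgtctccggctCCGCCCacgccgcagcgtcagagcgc
Unc13b, chr4:43058703-43058952, plus strand, GGGCGG on either strand and CACGTG in capitals: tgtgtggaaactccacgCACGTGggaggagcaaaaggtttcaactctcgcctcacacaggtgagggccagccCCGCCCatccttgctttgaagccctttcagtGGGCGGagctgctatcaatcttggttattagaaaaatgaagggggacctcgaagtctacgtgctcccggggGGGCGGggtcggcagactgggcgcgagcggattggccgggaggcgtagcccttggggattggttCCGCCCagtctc
Syn1, chrX:20920919-20921168, minus strand, TTCAGCACC and TGACGTCA in capitals: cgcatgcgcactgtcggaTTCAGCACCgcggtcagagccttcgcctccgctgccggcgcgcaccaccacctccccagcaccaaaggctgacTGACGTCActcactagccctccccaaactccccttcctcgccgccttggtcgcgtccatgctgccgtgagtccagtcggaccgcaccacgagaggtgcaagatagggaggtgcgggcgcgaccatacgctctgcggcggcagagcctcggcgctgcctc

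Letters were searched on both strands of the whole windows and compared with the windows of all 27025 genes in the table. The members had to be counted in these libraries, whereas the 27025 genes were not chosen by expression. Shares among expressed genes alone were not taken, so the shares below cannot be read as a trait of release genes. GGGCGG, the core of the GC box, was in 50 of the 61 members' windows (82.0%) and in 38.2% of all genes. CACGTG, an E box, was in 10 members (16.4%) and in 8.09% of all genes. TGACGTCA, the cAMP response element, was in Syn1 and Stxbp3 and in 2.03% of all genes. TTCAGCACC is the left part of RE1, the element bound by the repressor REST that keeps neuronal genes silent outside neurons, and 0.433% of all genes held it. It was in Syn1, 232 bases before the start, and in Unc13a on the other strand, 23 bases past the start. That place in Unc13a (chr8:71671725-71671754, minus strand) reads as follows.
Unc13a past the start, TTCAGCACC on the other strand in capitals: aggcgctgtccgcgcccccGGTGCTGAAgc
A match of letters says nothing of binding in these tissues.

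The 18 libraries held 5.43 to 8.97 M counts, of which the members took 1.20% to 1.47% in hippocampus and 1.24% to 1.66% in cortex. Levels below are CPM, counts brought to a common library depth, and scaled by TMM, a factor that evens out the composition of the libraries. Since each fragment comes from the 3′ end of a transcript, the values do not grow with gene length, but levels are compared here within a gene only. Neuron markers of the 2 tissues followed the labels. The sum of 14 hippocampal neuron genes was 421 to 685 CPM in hippocampus and 133 to 249 in cortex. That of 13 cortical neuron genes was 1466 to 2828 in hippocampus and 3501 to 4741 in cortex. Markers of other regions varied between libraries. The sum of 11 striatum genes was 115 to 277 CPM in hippocampus and 261 to 1611 in cortex. That of 10 choroid plexus genes was 175 to 8612 in hippocampus and 256 to 5599 in cortex. The libraries of 3 days to 3 weeks (8 libraries) also stood apart from the control and 8 to 20 weeks (10 libraries). Their column headers have another form, and Rn45s (the ribosomal RNA precursor) took 14.83% to 18.61% of their counts against 7.75% to 12.88%. Exposure class and library set therefore cannot be told apart for the short-term libraries, all of which belong to the first set.

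Each library held counts of all 21 core genes of release. Syt1, the calcium sensor of fast release, ranged from 2081 to 2878 CPM over the hippocampus libraries and from 2429 to 3391 over the cortex libraries. Snap25 ranged from 850 to 1362 CPM in hippocampus and from 1180 to 1582 in cortex. Of these core members 15 varied by less than 2 times between their lowest and highest library in both tissues. Among all 78 members 45 did so. The widest ranges on the log2(CPM + 1) scale were those of low genes: Cplx3 (2.84), Syt2 (2.63) and Rab30 (2.56) in hippocampus, and Syt6 (2.38), Syt2 (2.15) and Syt10 (1.85) in cortex, against member medians of 0.77 and 0.73.

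The first comparison asked how the 2 tissues differ, within each exposure time. Genes of the release machinery were more often lower than higher in hippocampus. Of the 78 members 22 were lower in hippocampus (28.2%, against 9.26% of all 14865 genes tested) and 4 were higher (5.13%, against 7.60%), by edgeR's quasi-likelihood test at an adjusted p of 0.05 (Benjamini-Hochberg over all genes). The median log2 fold change was -0.08 over the members and 0.00 over all genes. The other 52 members did not pass. By role, 4 of 5 neuronal SNARE genes, 7 of 15 synaptotagmins, 2 of 3 complexins, 3 of 5 priming and active zone genes and 3 of 7 vesicle membrane genes were lower, and none of these was higher. Among 15 other syntaxins and VAMPs, which serve the Golgi, endosomes and the cell surface, 2 were higher and none was lower. Of 12 pan-neuronal markers 6 were lower and none was higher, with a median log2 fold change of -0.18. Excitatory neuron markers were split, with 3 of 8 lower and 3 higher (median -0.02). Of 10 inhibitory neuron markers 3 were lower and none was higher (median -0.04). Among astrocyte markers 4 of 9 were higher and none was lower (median 0.06). The pan-neuronal markers summed to 4877 to 7314 CPM in hippocampus and 5350 to 8191 in cortex. The part of neuronal markers in the members' values was not tested. All 9 striatum markers tested were lower in hippocampus (median -1.66). Of 10 choroid plexus markers 1 was higher and none was lower (median 1.43). The part of these regions in the members' values was not tested either. In bulk tissue, fewer cells of a type and less RNA per cell cannot be told apart. With scaling by total counts alone the split was 14 lower and 6 higher, with 16.3% of all genes called.

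**Figure D1:**
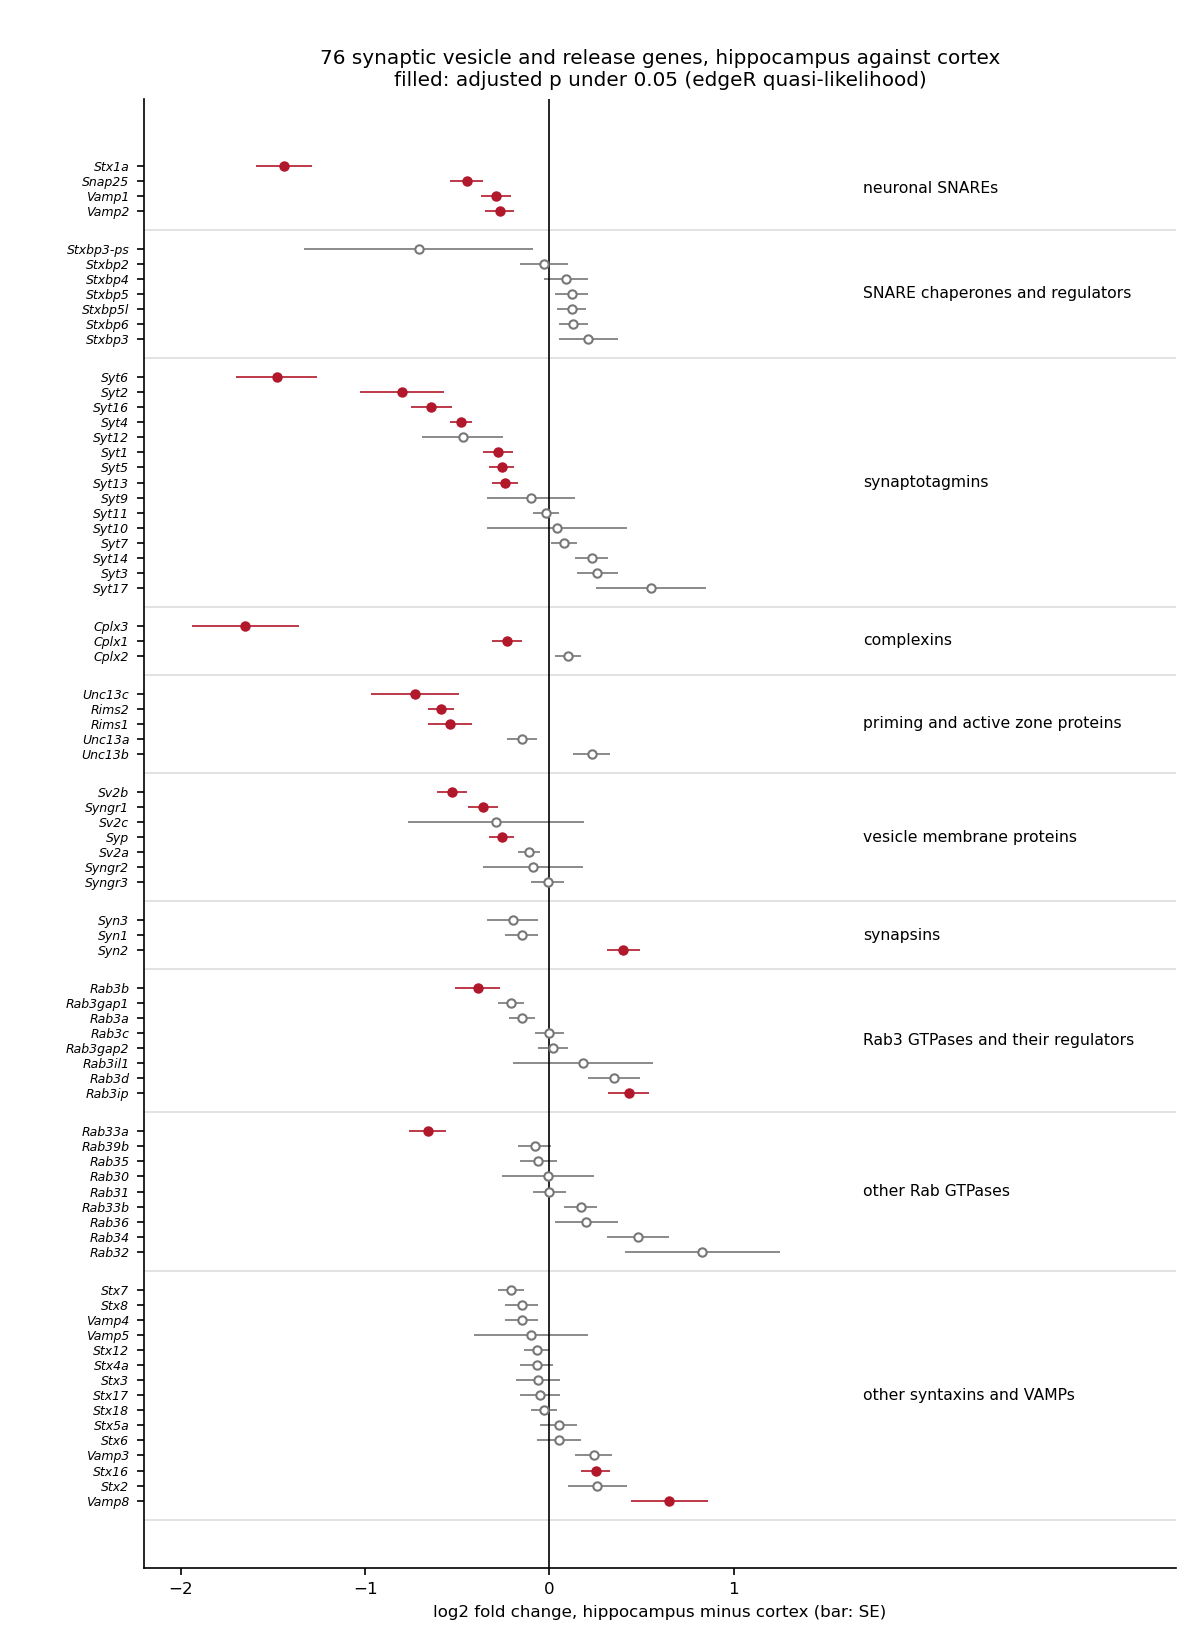
Log2 fold change of hippocampus against cortex for 76 members, grouped by role; points are the estimates, bars their SE, and filled red points passed an adjusted p of 0.05. Stx1a, Syt6 and Cplx3 stand furthest to the left, and the lower members lie mostly in the upper groups.

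Stx1a (chr5:135023482-135051100, plus strand, GRCm38), the plasma membrane syntaxin of the neuronal SNARE complex, was the member with the smallest p. In hippocampus it was at 76.9 CPM in the control, 131, 51.0 and 79.2 at 3, 5 and 7 days, and 131, 61.0, 59.3, 157 and 142 at 3, 8, 12, 16 and 20 weeks. In cortex it was at 253 in the control, 294, 222 and 234 at 3, 5 and 7 days, and 269, 248, 244, 246 and 238 from 3 to 20 weeks. The tissues did not overlap, and the log2 fold change was -1.44 ± 0.15 (SE; adjusted p = 2.36e-06, edgeR quasi-likelihood; lower at 9 of 9 times). Cortex was nearly even across libraries while hippocampus fell into a lower group (51.0 to 79.2) and a higher one (131 to 157).

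The higher Stx1a values in hippocampus were those of 3 days, 3 weeks, 16 weeks and 20 weeks. In the same 4 libraries the sum of 13 cortical neuron markers was 2429, 2828, 2741 and 2456 CPM, against 1466 to 1813 in the other 5. How far cortical tissue in the dissection took part in the Stx1a values was not tested. Without these 4 times 14 of the 78 members were lower and none was higher (17.9% called, against 10.2% of all genes).

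Rims2 was the only other member without overlap between the tissues, at 103 to 143 CPM (median 117) in hippocampus and 167 to 219 (median 180) in cortex. It encodes an active zone scaffold that tethers vesicles near calcium channels, and its log2 fold change was -0.59 ± 0.07 (adjusted p = 9.62e-06, edgeR quasi-likelihood). All 9 hippocampus libraries lay below all 9 cortex libraries for these 2 members and for 0.989% of all genes, and no member lay wholly above (1.04% of all genes). Rims1, its close relative, was lower at 8 of 9 times (median 62.0 against 92.9 CPM) with a log2 fold change of -0.54 ± 0.12. The ranges of Rims1, 42.7 to 79.9 and 59.0 to 119 CPM, overlapped.

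Among the other neuronal SNARE genes, Snap25 had a median of 1021 CPM in hippocampus and 1440 in cortex, and its log2 fold change was -0.45 ± 0.09 (adjusted p = 0.00138, edgeR quasi-likelihood). It was lower at 8 of 9 times; the 7 day pair went the other way, with 1362 in hippocampus and 1180 in cortex. Vamp2, the main synaptobrevin of forebrain vesicles, ranged from 496 to 743 CPM (median 631) in hippocampus and from 539 to 1006 (median 799) in cortex. Its log2 fold change was -0.27 ± 0.08, and that of Vamp1 was -0.29 ± 0.08. Both pairs of ranges overlapped widely.

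Stxbp2 and Stxbp3, which serve secretion outside neurons, did not differ past the threshold between the tissues. Nor did the tomosyns Stxbp5 and Stxbp5l, which hold syntaxin away from vesicles.

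Of the synaptotagmins, Syt6 (median 3.41 CPM in hippocampus, 11.9 in cortex), Syt2 (12.3 and 23.8), Syt16 (27.8 and 44.5), Syt4 (266 and 384), Syt1 (2585 and 3143), Syt5 (105 and 126) and Syt13 (135 and 154) were lower in hippocampus. Their log2 fold changes were -1.48 ± 0.22, -0.80 ± 0.23, -0.64 ± 0.11, -0.48 ± 0.06, -0.28 ± 0.08, -0.26 ± 0.07 and -0.24 ± 0.07 (SE), in that order. Syt1 and Syt2 are fast calcium sensors, whereas Syt4 lacks calcium binding in one of its domains and Syt13 does not bind calcium. Syt7, the slow sensor of asynchronous release and facilitation, did not pass, with medians of 640 and 582 CPM. Nor did Syt11, with 1396 and 1461, or Syt3, with 54.2 and 43.2. Syt2 ranged from 3.09 CPM at 20 weeks to 24.3 at 3 days in hippocampus, and from 7.86 at 7 days to 38.3 at 3 weeks in cortex. Syt6 in cortex was lowest at 7 days (2.58 CPM) and highest at 5 days and 8 weeks (17.4 and 17.6). In those 3 libraries 11 striatum markers summed to 264, 1611 and 1282 CPM, out of a cortex range of 261 to 1611. At 20 weeks in cortex Syt6 was at 8.75 CPM although the sum was lowest there (261). The part of striatum in the Syt6 values was not tested. For Syt9 the hippocampus library of 8 weeks stood high at 22.2 CPM, where the other 8 ranged from 3.94 to 12.9. In that library 12 thalamus and habenula markers summed to 355 CPM against 101 to 208 in the other hippocampus libraries, and their part in the Syt9 value was not tested.

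Complexins split by gene. Cplx3, a complexin of ribbon synapses and of deep cortical layers, was at 1.5 to 16.9 CPM (median 4.31) in hippocampus and 10.4 to 20.5 (median 14.4) in cortex. Its log2 fold change was -1.65 ± 0.29, lower at 9 of 9 times, and the 3 week hippocampus library, high in cortical markers, gave its highest value there. Cplx1, typical of inhibitory and fast neurons, was lower by less (medians 342 and 413 CPM, log2 fold change -0.23 ± 0.08). Cplx2, the complexin of excitatory forebrain neurons, had medians of 671 and 655 CPM and did not pass.

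Among vesicle membrane genes, Sv2b (medians 253 and 358 CPM, log2 fold change -0.53 ± 0.08), Syngr1 (149 and 218, -0.36 ± 0.08) and Syp (123 and 145, -0.26 ± 0.07) were lower in hippocampus. Sv2a, the broadly used form of this transporter-like glycoprotein, had medians of 435 and 474 CPM and did not pass, like Syngr3 (59.1 and 58.5). Unc13c (28.2 and 46.5, -0.73 ± 0.24) was lower, while Unc13a (91.9 and 123) and Unc13b (28.8 and 24.3) did not pass. Unc13a is the main Munc13 of glutamate synapses. Rab3b (30.4 and 41.2, -0.39 ± 0.12) and Rab33a (20.7 and 33.1, -0.66 ± 0.10), a Rab of Golgi-derived vesicles, were lower too, and Rab3a, the main vesicle Rab, had medians of 573 and 627 CPM and did not pass.

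Only 4 members were higher in hippocampus. Syn2, which tethers reserve vesicles, was at 182 to 261 CPM (median 249) there and 115 to 227 (median 183) in cortex, with a log2 fold change of 0.40 ± 0.09 (adjusted p = 0.00559, edgeR quasi-likelihood; higher at 9 of 9 times). Syn1, its closest relative, had medians of 175 and 194 CPM and did not pass. Rab3ip, an exchange factor that loads Rab GTPases with GTP, was higher at 9 of 9 times (31.5 and 23.8 CPM, 0.43 ± 0.11). Stx16, a Golgi syntaxin (46.2 and 39.8, 0.25 ± 0.08), and Vamp8, an endosomal and secretory granule SNARE (8.72 and 5.11, 0.65 ± 0.21), were each higher at 8 of 9 times. Vamp8 was highest at 3 days in hippocampus (19.5 CPM) and at 3 weeks in cortex (12.3), followed there by 3 days (10.7). The choroid plexus markers of these libraries summed to 8612, 2697 and 5599 CPM, in that order. At 12 weeks in hippocampus Vamp8 was lowest (5.79) although the sum was 2539. How far choroid plexus took part in the Vamp8 values was not tested.

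**Figure D2:**
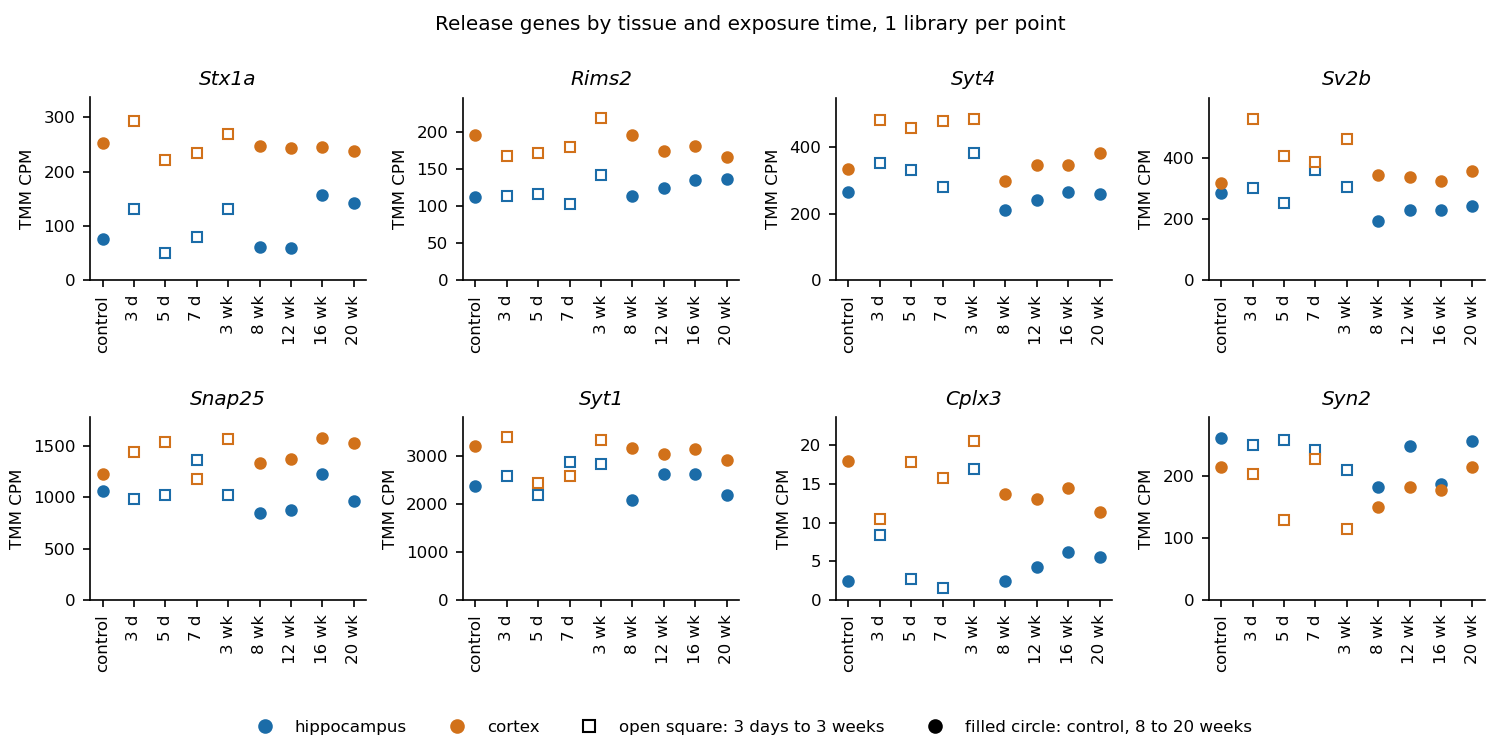
TMM-scaled CPM of 8 members in each library, hippocampus in blue and cortex in orange, from the control to 20 weeks; each point is 1 library, open squares are the libraries of 3 days to 3 weeks. Stx1a and Rims2 do not overlap between the tissues, Syt4 and Sv2b are lower in hippocampus at every time, and Syn2 is higher at every time.

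Fewer members were called within the libraries of 3 days to 3 weeks. There 6 members were lower and none was higher, at a background of 4.67% of genes called, and within the control and 8 to 20 weeks 22 were lower and 4 higher, at a background of 20.1%. Stx1a kept the same size in both, with log2 fold changes of -1.44 ± 0.16 and -1.43 ± 0.19. Syt1 was at -0.14 ± 0.13 in the first and -0.39 ± 0.08 in the second, and Syt2 at -0.17 ± 0.29 and -1.23 ± 0.19. The difference between these 2 sets was not tested. In all 18 fits that each left out 1 library, 16 of the 26 members stayed called. Among them were Stx1a, Rims2, Syt4, Sv2b, Syt6, Rab33a, Syt16, Cplx3, Snap25, Syngr1, Rims1, Syn2, Rab3ip, Syt1 and Syt5. Leaving out 1 library also removes the tissue difference of its time, so both fits of a time are nearly the same check. Without either library of 12 weeks 16 members were called, 14 lower and 2 higher, at 12.3% (hippocampus left out) and 12.2% (cortex left out) of all genes. With exposure time left out of the fit 15 were called, 13 lower and 2 higher, and 12.2% of all genes.

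The second question was whether UPM changed these genes against the control. No member passed when all 16 exposed libraries were compared with the 2 controls, nor did any gene of the whole table (0% called; 1 member and 272 genes had an unadjusted p under 0.05 by edgeR). DESeq2 called none of the members either. The 3 members with the smallest p were Stxbp3 (log2 fold change 0.62), Rab3ip (-0.32) and Unc13c (0.68), all with an adjusted p of 0.98 in edgeR's quasi-likelihood test. In hippocampus Unc13c was at 19.8 CPM in the control and at 13.9 to 62.4 in the exposed libraries, and in cortex at 36.2 and at 34.7 to 75.7, so the control lay within the exposed range in both.

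Of the 21 core members, 13 had the control inside the range of the exposed libraries in both tissues. None had the control as the highest or the lowest library in both. Among all 78 members 53 had it inside in both, and the share over all genes was not taken. The exposed libraries span both library sets, so these counts cannot be read as an absence of change. Log2 fold changes of the core members for UPM against control ran from -0.43 (Unc13a) to 0.35 (Syt2), with SE of 0.12 to 0.50. Syt1 was at 2372 CPM in the hippocampus control and 2081 to 2878 in the exposed libraries, and at 3197 in the cortex control and 2429 to 3391 in the exposed. Snap25 was at 1063 and 850 to 1362 in hippocampus, and at 1226 and 1180 to 1582 in cortex. Vamp2 was highest in the control in hippocampus, 743 against 496 to 701, but not in cortex, where the control had 825 and the exposed libraries 539 to 1006. With 1 control per tissue, changes smaller than the spread between exposure times were not detectable.

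Long-term UPM against control gave the same picture: no member and no gene passed (0% called; 1 member and 185 genes at an unadjusted p under 0.05), and DESeq2 again called no member. Stxbp3 (0.59), Unc13c (0.75) and Rab3ip (-0.28) had the smallest p, each with an adjusted p of 1. Rab3ip, higher in hippocampus than in cortex, was highest in the hippocampus control (41.9 CPM, against 24.2 to 35 in the exposed libraries). In cortex the control had 26.3 and the exposed libraries 16.9 to 27.4.

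Short-term UPM against control gave calls in 1.94% of genes but in no member, although 14 members had an unadjusted p under 0.05 (17.9%, against 21.9% of all genes). The closest were Unc13a (log2 fold change -0.85, adjusted p = 0.0727), Rab36 (-1.01, 0.0770) and Unc13b (-0.99, 0.1), by edgeR's quasi-likelihood test. DESeq2 called 3 members (3.85%, against 6.67% of all genes), and scaling by total counts 5 (6.41%, against 5.40%), all lower. Without the hippocampus library of 7 days 1 member was called (1.05% of all genes), without that of 3 weeks 2 (5.56%), and without the 3 week cortex library 4 (7.89%), all lower. No gene at all was called without the hippocampus control or without the cortex one (2004 and 1445 genes at an unadjusted p under 0.05 by edgeR), nor with exposure time as a block in limma-voom (2874 genes). With the library set as a covariate, which leaves only the 3 week libraries to separate set from exposure, no gene was called (660 genes at an unadjusted p under 0.05 by edgeR). Unc13a was then at 0.12 and Unc13b at 0.46, each with an adjusted p of 1. The low values of both genes were thus shared by the short-term and the 3 week libraries and are described next.

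The libraries of 3 days to 3 weeks were then compared with the control and 8 to 20 weeks, a comparison made after the column headers had been seen. Of all 13864 genes tested 20.4% were higher and 19.2% lower, and the members' share was no larger: 11 of 78 were higher (14.1%) and 14 lower (17.9%). The members' median log2 fold change was -0.03, beside 0.00 over all genes. With scaling by total counts alone, which moved the median of all genes to -0.19, the split was 4 higher and 32 lower, with 42.7% of all genes called. The members that moved are therefore given by their values, and their number is not particular to the release machinery.

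Both Munc13 genes of forebrain synapses were lower in the earlier set. In hippocampus Unc13a was at 59.3, 50.6, 91.6 and 60.8 CPM at 3, 5 and 7 days and 3 weeks, and at 111, 91.9, 104, 102 and 117 in the control and at 8, 12, 16 and 20 weeks. In cortex it was at 74.0, 58.4, 66.9 and 55.2, and at 132, 123, 127, 125 and 127. The sets did not overlap in either tissue, though 7 days and 8 weeks in hippocampus nearly met. The log2 fold change was -0.83 ± 0.10 (adjusted p = 3.67e-07, edgeR quasi-likelihood).

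Unc13b encodes Munc13-2, a second priming factor with its own short-term plasticity. It was at 19.1, 15.7, 20.3 and 13.7 CPM in the earlier hippocampus libraries, and at 32.8, 28.8, 32.9, 41.4 and 39.2 in the others. In cortex it was at 11.3, 14.0, 17.8 and 11, and at 32.0, 30, 24.3, 34.2 and 38.2. Again no library of one set reached the other, and the log2 fold change was -1.12 ± 0.12 (adjusted p = 1.35e-07, edgeR quasi-likelihood), the largest among the members called. Unc13c, the Munc13 best known from cerebellum, did not pass.

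Stx3, a syntaxin of dendritic and ribbon synapse exocytosis, was the third member whose sets did not overlap in either tissue. It was at 24.1, 12.9, 15.0 and 19.9 CPM in the earlier hippocampus libraries and 25.8 to 40.8 in the others, and at 18.3 to 23.8 and 27.3 to 40.0 in cortex (log2 fold change -0.84 ± 0.12). Syt4 was the only member wholly above, at 280 to 384 CPM against 210 to 266 in hippocampus and 459 to 486 against 300 to 384 in cortex (0.46 ± 0.07). Such separation in both tissues was found in 4.96% of all genes for the lower direction and 5.56% for the higher one, so 3 and 1 of 78 members are not more than among all genes.

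Of the neuronal SNARE genes Vamp1 (log2 fold change -0.61 ± 0.12) and Vamp2 (-0.34 ± 0.08) were lower in the earlier set, and Snap25 and Stx1a did not pass. Vamp2 in cortex was at 612, 539, 690 and 668 CPM in the earlier libraries and at 825, 892, 896, 799 and 1006 in the others, without overlap. In hippocampus it was at 642, 496, 631 and 569, and at 743, 589, 622, 701 and 682, with overlap. Stxbp2 (-0.86 ± 0.15), known from secretion outside neurons, was lower as well. It lay between 7.48 and 14.1 CPM in the earlier hippocampus libraries and between 15.9 and 28.5 in the others, and the cortex ranges, 10.2 to 18.4 and 17.7 to 25.4, overlapped.

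Other lower members were Syngr1 (log2 fold change -0.34 ± 0.08), Rab36 (-0.84 ± 0.16), Syt3 (-0.38 ± 0.10), Stx2 (-0.49 ± 0.16), Stx16 (-0.24 ± 0.08) and Rab3gap2 (-0.20 ± 0.07). Those higher, beside Syt4, were Vamp8 (0.77 ± 0.22), Rab35 (0.43 ± 0.09), Rab33a (0.43 ± 0.10), Sv2b (0.39 ± 0.08), Rab31 (0.38 ± 0.10), Rab39b (0.37 ± 0.11), Stx8 (0.28 ± 0.10), Rab33b (0.28 ± 0.10), Syt5 (0.23 ± 0.07) and Cplx1 (0.22 ± 0.08). By role, 5 of 9 other Rab GTPases, which direct Golgi and endosomal traffic, were higher and 1 was lower. None of the 3 synapsins passed. Of all genes 20.4% were higher and 19.2% lower, and these small groups were not tested against those shares. Without the 2 controls 10 members were higher and 13 lower (35.5% of all genes called), and without the 2 libraries of 3 weeks 9 were higher and 14 lower (36.6%).

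Some markers of other cells and nuclear RNAs moved with the library set as well. Of all genes 20.4% were higher and 19.2% lower, and the lists below were not tested against these shares. In the earlier set 7 of 9 astrocyte markers were higher (median log2 fold change 0.35), as were 6 of 7 red blood cell markers (0.91) and 5 of 10 microglia markers (0.37, with 1 lower). Of 7 RNAs followed for RNA quality 5 were lower (median -2.15), among them the nuclear RNAs Malat1, Neat1 and Meg3, while Rn45s was higher. Among 12 pan-neuronal markers 2 were higher and 3 lower (median 0.04), and the change furthest from 0 was that of the non-coding RNA Snhg11 (-2.48 ± 0.15). The pan-neuronal markers, Snhg11 included, summed to 4877 to 6003 CPM in the earlier set against 6529 to 8191. Of 10 inhibitory neuron markers 4 were lower and 1 higher (median -0.19). Of 8 excitatory neuron markers 2 were lower and 3 higher (median -0.05). The astrocyte markers summed to 4531 to 6018 CPM against 4317 to 4795, and the red blood cell markers to 1144 to 3884 against 841 to 1524. Of 10 choroid plexus markers 1 was higher and none was lower (median 0.58), and of 10 oligodendrocyte markers none passed (median -0.03). The part of these RNAs in the members' values was not tested. Time of exposure, age, library set and the higher Rn45s share all change together between these libraries and cannot be told apart.

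**Figure D3:**
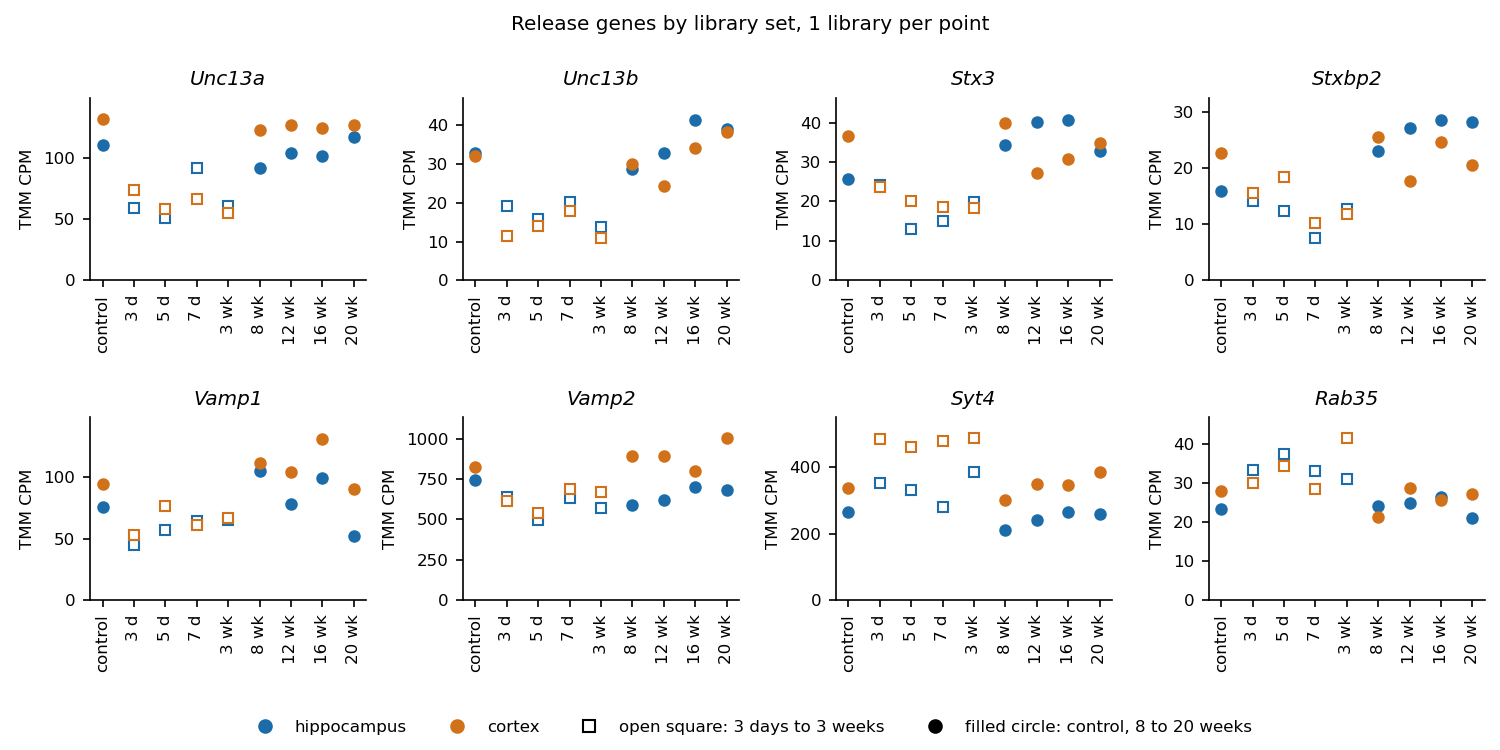
TMM-scaled CPM of 8 members in each library, hippocampus in blue and cortex in orange; open squares are the libraries of 3 days to 3 weeks and filled circles the control and 8 to 20 weeks. Unc13a, Unc13b and Stx3 are lower and Syt4 is higher in every open square than in every filled circle of the same tissue.

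Long-term was next compared with short-term UPM within each tissue, with 5 against 3 libraries. In hippocampus 0.230% of genes and no member passed; 17 members (21.8%) and 21% of all genes had an unadjusted p under 0.05. Smallest p went to Rab39b (log2 fold change -0.66, adjusted p = 0.0637), Syngr2 (1.53, 0.0682) and Stxbp3-ps (4.58, 0.0719), by edgeR's quasi-likelihood test. Rab39b, a neuronal Rab, was at 37.2, 53.6 and 48.0 CPM at 3, 5 and 7 days and at 31.1, 25.4, 30.9, 27.1 and 31.0 from 3 to 20 weeks, so the groups did not overlap. Stxbp3-ps, the pseudogene, had 1 count in the 3 short-term libraries together and at most 2.80 CPM later, and its fold change depends on how such counts are smoothed.

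In cortex no gene and no member passed (0% called; 14 members and 3081 genes had an unadjusted p under 0.05). Syt3 (log2 fold change 0.64, adjusted p = 0.1), Vamp1 (0.67, 0.129) and Vamp2 (0.47, 0.141) had the smallest p by edgeR's quasi-likelihood test. Vamp1 was at 53.0, 76.5 and 60.9 CPM in the short-term libraries and at 66.4, 112, 104, 131 and 90.7 in the long-term ones. The low end of that second group is the 3 week library. Without the 3 week library, which makes this a comparison of the 2 library sets within a tissue, 12 members passed in cortex (15.4%, against 20.5% of all genes) and 15 in hippocampus (19.2%, against 14.5%). DESeq2 called 5 members in cortex (6.41%, against 4.52%) and 8 in hippocampus (10.3%, against 7.70%).

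Whether the change from short-term to long-term UPM differed between the tissues was tested as an interaction. No gene and no member passed (0% called; 8 members and 1252 genes at an unadjusted p under 0.05 by edgeR), and DESeq2 called no member. Stxbp3-ps (adjusted p = 0.340), Syngr2 (0.371) and Stx6 (0.413) had the smallest p in edgeR's quasi-likelihood test. Syngr2, a synaptogyrin of non-neuronal cells, was at 2.59, 1.52 and 3.44 CPM at 3, 5 and 7 days and 6.77, 6.55, 6.53, 10.7 and 5.81 from 3 to 20 weeks in hippocampus. In cortex it was at 5.37, 6.36 and 4.51, and at 6.75, 3.33, 5.22, 5.95 and 4.50.

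Over the weeks of long-term UPM 2 members rose and 1 fell, in a fit of a slope per 10 weeks to 10 libraries. The 2 that rose (2.56% of members, against 1.01% of all 14087 genes tested) were Unc13b, with a log2 slope of 0.84 ± 0.16 (adjusted p = 0.0336, edgeR quasi-likelihood), and Unc13a, with 0.52 ± 0.13 (adjusted p = 0.0497). The one that fell (1.28%, against 2.45%) was Rab31, a Rab of the trans-Golgi network also used in astrocytes, with -0.42 ± 0.08 (adjusted p = 0.0338). Rab31 went from 56.7 CPM at 3 weeks through 47.9, 40.9 and 42.7 to 37.6 at 20 weeks in hippocampus, and from 59.3 through 40.7, 40.0 and 37.8 to 29.1 in cortex. Unc13a went from 60.8 CPM at 3 weeks through 91.9, 104 and 102 to 117 at 20 weeks in hippocampus, and from 55.2 through 123, 127 and 125 to 127 in cortex. Over the same weeks 5 of 10 oligodendrocyte markers fell (median slope -0.69) and 1 of 9 astrocyte markers did (-0.15), and none of either rose. Oligodendrocyte markers summed to 5439, 7129 and 1913 CPM at 3, 8 and 20 weeks in hippocampus, and to 4502, 6058 and 2910 in cortex. Their part in the members' slopes was not tested.

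The 3 week libraries belong to the earlier set, and no member's slope was called without them. Within 8 to 20 weeks no member passed, at 0.286% of genes called, with slopes of 0.40 ± 0.12 for Unc13b, 0.14 ± 0.08 for Unc13a and -0.31 ± 0.10 for Rab31 (adjusted p = 0.282, 0.606 and 0.310, edgeR quasi-likelihood). Without the hippocampus library of 3 weeks, or without the cortex one, none of the 3 passed either. Leaving out the library of 12 or 16 weeks in either tissue, or of 20 weeks in cortex, also left no member called, and 20 weeks in hippocampus left 1 (0.622% of all genes). Without the 8 week library of hippocampus 7 members were called (8.97%, against 9.84% of all genes), and without that of cortex 9 (11.5%, against 11.9%). DESeq2 called 12 members, 9 rising and 3 falling (15.4%, against 11.7%). Taking libraries of the same week as a block gave none (0.142% of all genes).

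**Figure D4:**
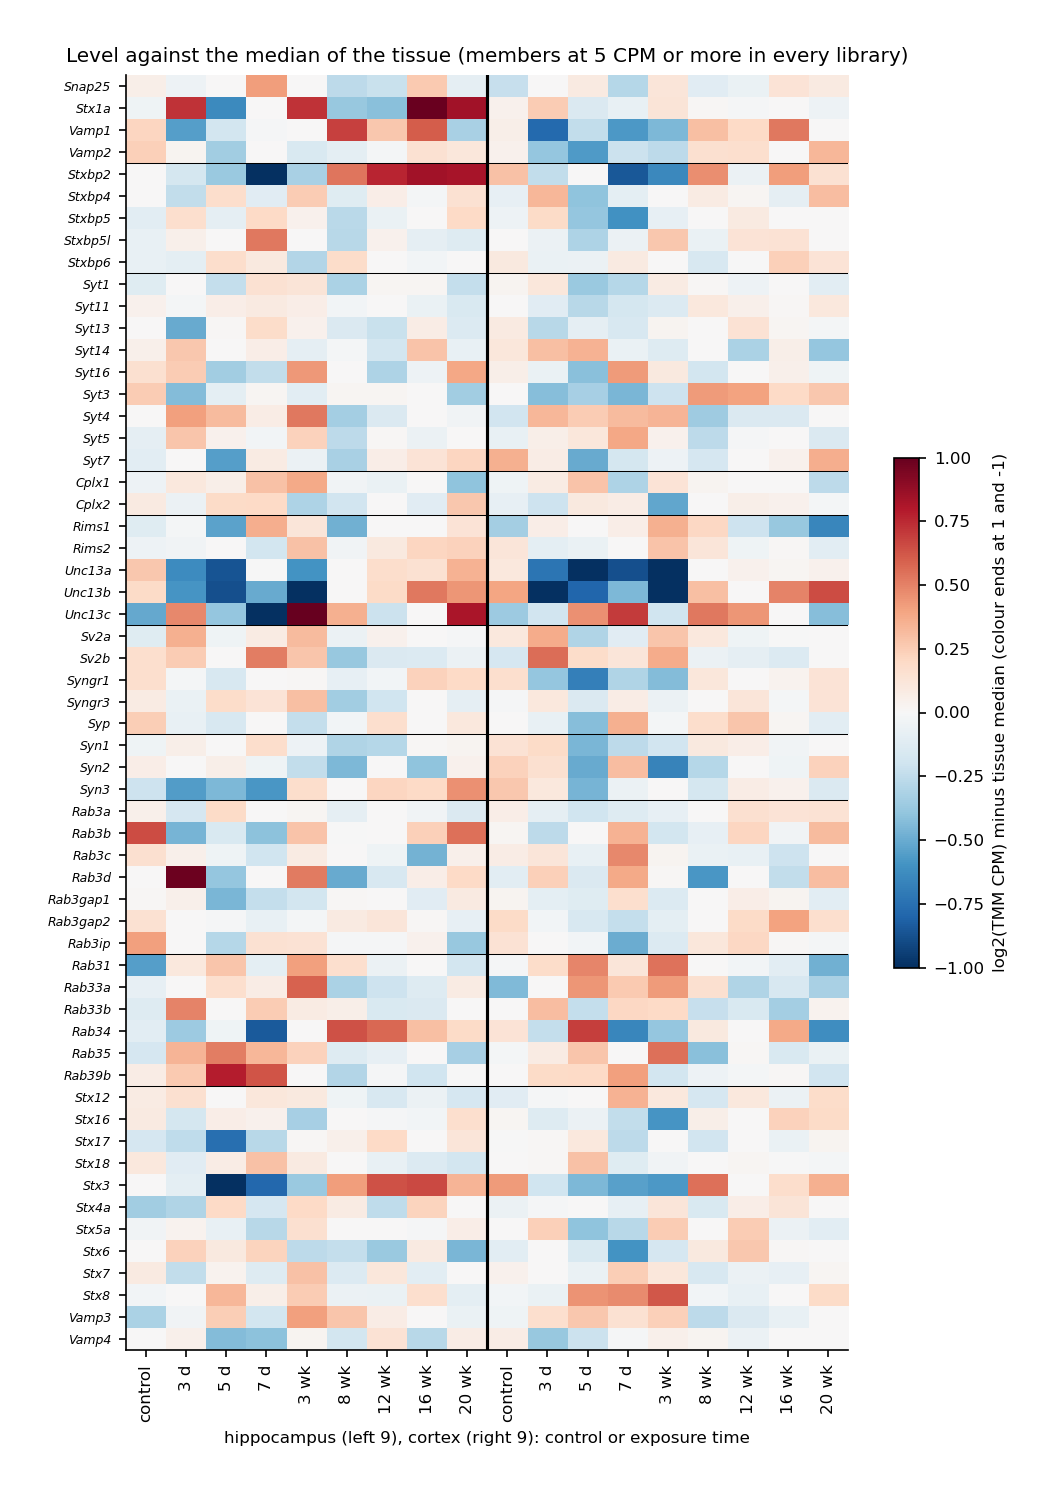
Level of 58 members with at least 5 CPM in every library, as log2(TMM CPM) minus the median of the tissue, by role from neuronal SNARE genes at the top to other syntaxins and VAMPs at the bottom; red is above and blue below the median. Unc13a, Unc13b and Stx3 are mostly blue at 3 days to 3 weeks in both tissues, though Unc13a at 7 days in hippocampus is near its median. Stx1a is clearly red at 3 days and 3, 16 and 20 weeks in hippocampus, with only paler red at 3 days and 3 weeks in cortex.

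The other genes of the vesicle cycle were taken from 4 lists of 74 genes, 73 of them in the files. Between the tissues 12 of the 73 were lower in hippocampus and 8 higher, a more even split than among the members. The difference between the lists was not tested. Of all genes 9.26% were lower and 7.60% higher in this comparison, and the small lists below were not tested against these shares. In the list of fusion machinery and priming 4 of 16 were lower and 2 higher. Doc2b, a calcium sensor of spontaneous release, was at 25.2 to 49.8 CPM in hippocampus and 4.77 to 12.4 in cortex (log2 fold change 2.04 ± 0.18), while Doc2a (-0.44 ± 0.10) and Snap47 (-0.28 ± 0.06) were lower. Among 20 active zone genes 2 were lower and 3 higher, with Lin7a (-0.92 ± 0.09) and the liprins Ppfia2 (0.55 ± 0.08) and Ppfia4 (0.73 ± 0.12) of smallest p.

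Of 17 genes of the vesicle membrane and its loading 2 were lower and none was higher, beside 9.26% and 7.60% of all genes. Sncb, beta-synuclein, had a log2 fold change of -0.41 ± 0.08. Of 20 endocytosis genes 4 were lower and 3 higher, led by Dnm3 (-0.46 ± 0.06), a dynamin, and by Ston2 (0.67 ± 0.11) and Sh3gl1 (0.51 ± 0.09). Against the control, the lists gave no call for all UPM or for long-term UPM, and 2 lower genes for short-term UPM, the liprin Ppfia1 (-0.75 ± 0.16) and the endocytic scaffold Itsn1 (-0.54 ± 0.14), where 1.94% of all genes passed. Like every call of that comparison, both were lost without the hippocampus control, without the cortex control, with exposure time as a block, or with the library set as a covariate. In the comparison of library sets 17 of 72 tested were higher and 17 lower, near the shares of all genes. Of 20 active zone genes 6 were lower there and 2 higher, where 19.2% of all genes were lower and 20.4% higher. Among the lower ones were the calcium channel subunits Cacna1a (-0.66 ± 0.10) and Cacna1b (-0.56 ± 0.09) and the scaffold Pclo (-0.55 ± 0.10).

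Some members share their 3′ end with a gene on the opposite strand, and the strand setting of the counting is not given in the sources used here. Stx18, an endoplasmic reticulum syntaxin, was at 268 to 380 CPM and its neighbour Nsg1, a neuronal endosome gene, at 149 to 215, with a ratio of 1.69 to 1.89 in every library. Reads of the 2 genes cannot be told apart, so the Stx18 level is uncertain. Unc13a overlaps Colgalt1, which was at 38.6 to 64.8 CPM and moved less between the library sets (log2 fold change -0.25 against -0.83), with Unc13a to Colgalt1 ratios of 1.11 to 2.23. For Syn1 and its neighbour Araf the ratio ranged from 1.88 to 4.90, and for Rab3a and Mpv17l2 from 8.67 to 15.7. Rab3gap2 with Iars2 and Syt12 with A930001C03Rik are uncertain in the same way, and Rab3b, Syp and Syt6 also overlap a gene on the opposite strand.

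Of the 91 matches 13 were not members. Rab38 and Rab39 came closest, with 10 or more counts in 6 libraries, while Sv2c and the pseudogene Stxbp3-ps were the scarcest members, with 150 and 188 counts over all libraries and 10 or more in 9 of them. Vamp7 had 0 counts in all 18 libraries, where 3 counts in a library would be 0.327 to 0.569 CPM, and Rims3, Rims4, Cplx4, Stx11, Syngr4 and Syt8 had 2 counts each over all of them. At such counts no level is given for them. All 78 members passed the filter on low counts in every comparison above, except the tissue fit with exposure time left out, which tested 77.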

How the data were processed

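Total RNA of all mice in a group was combined into 1 library per tissue and time, and the 3′ ends of messages were read from an oligo-dT primer, per the labels' protocols. What was deposited is a whole-number count per gene symbol in 18 files. Per the submitters' processing notes the tools were Bowtie2, bedtools and edgeR, and the build was mm10. Versions, annotation, strand setting and treatment of repeated hits are not given in the sources used here. The files have 23282 lines and 23238 different symbols. Repeated symbols were summed, and 27 symbols that had become dates in 2 files were restored by position. Totals were 5.43 to 8.97 M counts, and 3 counts in a library equalled 0.327 to 0.569 TMM-scaled CPM, which covers counting error only.

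The counts were fitted over all genes with edgeR 4.0.16 in R 4.3.3 (quasi-likelihood F test, TMM, filterByExpr) and p-values adjusted over all genes tested (Benjamini-Hochberg). The tissue fit had exposure time as a block of 9 levels; libraries of the same time deviated together in both tissues (correlation across genes 0.18 to 0.42 at 9 of 9 times), but within the library sets only 2 of 9 were over 0.1. The other fits had tissue or none as covariate. limma 3.58.1, DESeq2 1.42.0, RLE or total-count scaling, other filters, each library left out and the library sets were alternatives. For hippocampus against cortex, UPM against control and long-term against short-term UPM in hippocampus, known changes were recovered on simulated counts. These changes were larger than most reported here, and the simulated counts held no library sets. The members, lists and tests were chosen with earlier results of these data known. Named were the core members, the members called (or the 3 of smallest p), the 3 of widest range per tissue, and in each other list those of smallest p. Positions come from GENCODE M21 (GRCm38, the authors' build) and promoters from RefSeq. Values of 2 members are not reported here, though counts of members include them.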

Additional observations from a re-analysis of the deposited data

Results flagged for a closer look

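Among the 5 long-term libraries of a tissue, 10 values of named members lay far from the other 4, out of 100 such groups looked at. Chance gives about 1 in 20, but the members named include those called between the library sets, which favours a 3 week library that stands apart, so the number cannot be read against chance. In cortex 6 of the 10 were the 3 week library: Unc13a at 55.2 CPM (others 123 to 127), Cplx2 at 457 (646 to 681), Syngr1 at 161 (218 to 240), Sv2b at 463 (325 to 358), Vamp8 at 12.3 (3.03 to 5.11) and Stxbp3-ps at 2.38 (1.07 to 1.41). Choroid plexus markers summed to 2697 CPM in this cortex library, against 256 to 457 in the other long-term ones. Their part in the Vamp8 value was not tested. In hippocampus the 3 week library was apart for Cplx3 at 16.9 CPM (others 2.40 to 6.26) and Sv2a at 541 (417 to 448). Rims1 was at 44.5 CPM in the 8 week hippocampus library (others 62.0 to 68.1), and Syngr2 at 10.7 in that of 16 weeks (5.81 to 6.77).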

How the results depend on the processing

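Pooled RNA, 1 library per tissue and time and 1 control per tissue limit what could be called, and low members such as Stxbp3-ps, Sv2c, Rab32 and Syt17 rest on few counts. Percentages in this section are the shares of all genes called in the same run. For hippocampus against cortex (26 members called) the count was 6 within 3 days to 3 weeks (4.67%). It was 16 without 3, 16 and 20 weeks (11.1%), 14 without those and 3 days (10.2%), and 15 with no replicate block (12.2%). Leaving out 1 library gave 16 to 24 (12.2% to 15.8%). For short-term UPM against control (0) it was 3 with DESeq2 (6.67%) and 5 with total counts (5.40%). With 1 library left out it was 0 to 4 (0% to 7.89%). For long-term against short-term UPM in hippocampus (0) it was 8 with DESeq2 (7.70%) and 8 with total counts (3.66%). With 1 library left out it was 0 to 15 there (0% to 14.5%). In cortex (0) it was 5 with DESeq2 (4.52%) and 0 to 12 with 1 library left out (0% to 20.5%). The slope over weeks (3) gave 12 with DESeq2 (11.7%) and 0 within 8 to 20 weeks (0.286%). It gave 0 with exposure time as a replicate block (0.142%), and 0 to 9 with 1 library left out (0% to 11.9%). For UPM or long-term UPM against control the count was 0 in every alternative run, the replicate block included (0%). For the difference between the tissues it was also 0 in every run (0% to 0.160%). The comparison of library sets (25) gave 23 to 29 with 1 library left out (36.9% to 39.4%) and 25 with the replicate block (40.3%).

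With the library set as a covariate the sign of 2 named values turned in short-term UPM against control, Unc13a to 0.12 and Unc13b to 0.46; the cause was not tested. No other named value changed its sign in any alternative run. Of the values of members named between the tissues, 587 stayed on their side of the threshold and 167 lost the call. The alternatives that leave out groups of libraries, the set comparison and the covariate were chosen after seeing the data.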
